A study of Mus musculus with 2 samples.

Results

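The core loop of the circadian clock was examined in kidney RNA-seq as 10 genes, Arntl, Clock, Npas2, Cry1, Cry2, Per1, Per2, Per3, Nr1d1 and Nr1d2. They were taken from the count table by gene symbol, and all 10 were found among its 45777 genes. The genes are textbook members of the loop, and they were chosen with the read counts of these libraries in view, so that their ratios are given as a description with no test. The study sequenced RNA from whole kidneys of 2 groups with 1 library each. The CKO library came from mice with a proximal tubule-specific conditional knockout of Inmt, and the Control library from control mice. Both groups ate standard chow, had no treatment and lived under a 12 h light and 12 h dark cycle. The Cre driver, the targeted allele, the genotype of the control mice, the strain, sex and age of the mice, the number of animals behind each library and the hour at which the kidneys were taken are not given in the sources used here.

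In the mouse clock, the proteins of Clock or its paralog Npas2 pair with BMAL1, the product of Arntl, and the pair binds E-box motifs to switch on the Per, Cry and Nr1d genes. PER and CRY proteins then return to the nucleus and inhibit the activators, and the REV-ERB receptors encoded by Nr1d1 and Nr1d2 repress Arntl, Npas2 and other genes through ROR response elements. In kidney and other peripheral tissues the Arntl transcript therefore peaks at a time of day far from that of Nr1d1 and the Per genes, and the level of each clock transcript depends on the hour of collection.

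Promoter windows of 4 members are shown because they carry motifs of this loop. They are RefSeq sequences of GRCm38.p6 that run from 250 bases before to 50 bases after a transcript start, read 5′ to 3′ on the strand of the gene. The Arntl window lies at chr7:113207261-113207560 on the plus strand, that of Per1 at chr11:69098699-69098998 on the plus strand, that of Cry1 at chr10:85185005-85185304 on the minus strand and that of Per3 at chr4:151044616-151044915 on the minus strand. Capitals mark a match on either strand.
Arntl: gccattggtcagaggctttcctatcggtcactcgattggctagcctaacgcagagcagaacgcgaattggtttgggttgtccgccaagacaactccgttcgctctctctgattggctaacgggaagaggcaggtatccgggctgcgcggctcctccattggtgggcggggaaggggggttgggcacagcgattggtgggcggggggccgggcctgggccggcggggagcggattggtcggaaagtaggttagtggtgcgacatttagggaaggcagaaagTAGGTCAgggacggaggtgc
Per1: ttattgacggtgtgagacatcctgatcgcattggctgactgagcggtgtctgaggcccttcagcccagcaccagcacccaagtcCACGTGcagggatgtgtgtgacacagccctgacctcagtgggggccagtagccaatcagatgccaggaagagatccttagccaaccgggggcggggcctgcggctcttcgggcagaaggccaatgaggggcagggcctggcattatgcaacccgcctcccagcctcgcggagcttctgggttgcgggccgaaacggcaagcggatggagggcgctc
Cry1: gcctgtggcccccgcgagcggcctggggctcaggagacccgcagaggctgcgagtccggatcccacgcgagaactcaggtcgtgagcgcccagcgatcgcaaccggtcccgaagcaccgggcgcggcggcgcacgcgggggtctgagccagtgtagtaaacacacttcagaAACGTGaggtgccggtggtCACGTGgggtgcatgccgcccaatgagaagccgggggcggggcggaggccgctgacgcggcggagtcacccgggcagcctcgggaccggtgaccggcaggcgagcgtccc
Per3: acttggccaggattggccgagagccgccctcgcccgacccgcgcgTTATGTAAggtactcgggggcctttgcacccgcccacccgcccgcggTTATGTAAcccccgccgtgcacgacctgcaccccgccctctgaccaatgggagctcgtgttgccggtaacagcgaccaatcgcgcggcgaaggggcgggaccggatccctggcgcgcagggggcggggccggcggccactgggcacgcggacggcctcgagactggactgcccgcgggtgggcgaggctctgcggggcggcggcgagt
The capitals in Arntl are TAGGTCA, the half-site bound by REV-ERB and ROR receptors, which starts at base 31 of the transcript. Per1 holds the E-box CACGTG 166 bases before its start. Cry1 holds CACGTG 60 bases before its start and, 79 bases before it, AACGTG, the reverse strand of the E-box variant CACGTT. Per3 holds 2 copies of the D-box TTATGTAA, the motif of DBP, TEF, HLF and NFIL3, at 205 and 158 bases before its start.

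Of the 10 members, 9 matched the RefSeq promoter table, all but Per2, with 13 windows. Among these, CACGTG was in 2 windows, CACGTT in 3, TTATGTAA in 1, TAGGTCA or TGGGTCA in 1 and the cAMP response motif TGACGTCA in none (0), each searched on both strands. Over all 32851 windows the shares with a match were 7.15% for CACGTG, 4.68% for CACGTT, 0.938% for TTATGTAA, 6.45% for TAGGTCA or TGGGTCA and 1.79% for TGACGTCA. The windows of Cry2 and Nr1d1 held the other 2 AACGTG matches, and no window of Clock, Npas2 or Nr1d2 held any of these motifs. A match describes the letters in the window and does not show binding.

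The CKO library held 38136616 counted reads and the Control library 33618076. Levels are CPM, reads scaled to a common library size, after TMM scaling, which sets the library sizes so that most genes keep a ratio near 1, and the 15129 genes that reached 1 CPM in the CKO or the Control library are called expressed. Inmt itself, the targeted gene, had 124 CPM in the CKO and 587 CPM in the Control library. Over all expressed genes the median log2 ratio of CPM + 0.5, CKO over Control, was 0.01. Of these genes, 1552 (10.3%) were higher by 2-fold or more and 251 (1.66%) were lower by 2-fold or more in the CKO library. With 1 library in each group no difference has a replicate check, and no p-value is given. Intervals are exact 95% intervals of counting error only, and they compare these 2 libraries, not the genotypes. In whole kidney, fewer cells of a type and less RNA per cell cannot be told apart.

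All 10 members were expressed, and the loop did not move as a block. Arntl and Npas2 were lower in the CKO library by 3.33-fold and 2.86-fold, whereas Per1 was 2.59-fold higher, and Per3, Cry1 and Cry2 were higher by 1.78-fold, 1.80-fold and 1.57-fold. Of the 10 members, 1 was at least 2-fold higher, where 10.3% of all expressed genes were, and 2 were at least 2-fold lower, where 1.66% of all expressed genes were. At 1.5-fold, 4 members were higher, against 19.3% of all expressed genes, and 2 were lower, against 6.85%. The median log2 ratio of the members was 0.41, with a range of -1.66 to 1.35, so the median falls between members of opposite direction. The members were chosen on this contrast, so nothing is read from these shares.

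Arntl, which encodes BMAL1, the partner that both activators need (NCBI gene 11865, chromosome 7 at 113178471 to 113314126 of GRCm38, plus strand), had 258 reads in the CKO library and 608 in the Control library. Its level was 6.06 CPM (5.34 to 6.85) in the CKO and 20.2 CPM (18.6 to 21.9) in the Control library, 3.33-fold lower in the CKO library (2.88 to 3.87). Only 41 of the 15129 expressed genes had a lower log2 ratio. Npas2, the paralog of Clock (chromosome 1 at 39193702 to 39363240, plus strand), had 217 reads in the CKO and 439 in the Control library. It had 5.10 CPM (4.44 to 5.82) in the CKO library against 14.6 CPM (13.2 to 16.0) in the Control library, 2.86-fold lower (2.43 to 3.38). For both genes the intervals of the 2 libraries were far apart.

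Clock, the histone acetyltransferase partner of BMAL1 (chromosome 5 at 76209868 to 76305603, minus strand), was much less different. It had 64.2 CPM (61.8 to 66.6) on 2733 reads in the CKO library and 95.9 CPM (92.4 to 99.5) on 2888 reads in the Control library, 1.49-fold lower (1.42 to 1.58). In the CKO library the Npas2 to Clock ratio, from TPM values, which are scaled by gene length, was 0.194, against 0.377 in the Control library. The same ratio in reads does not depend on a factor that multiplies a whole library, and it was 1.91-fold lower in the CKO library (1.61 to 2.28).

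**Figure D1:**
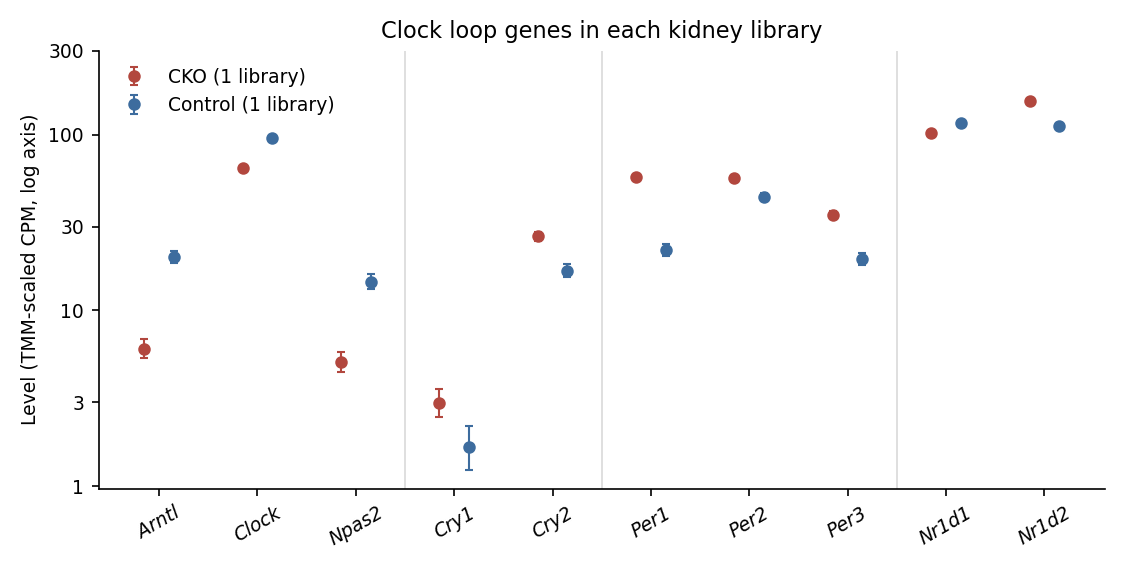
Level of each clock gene in TMM-scaled CPM on a log axis, with the CKO library left of the Control library for each gene and bars for exact 95% Poisson intervals, which cover counting error only. Arntl, Clock, Npas2 and Nr1d1 lie lower in the CKO library, and the other 6 genes lie higher, although Nr1d1 lies higher in the CKO library with total counts, TPM or FPKM.

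The Per genes encode the PERIOD proteins, which carry CRY into the inhibitory complex. Per1 (chromosome 11 at 69095108 to 69109965, plus strand), whose promoter also answers cAMP and glucocorticoid signals, had 2436 reads in the CKO and 666 in the Control library. Its level was 57.2 CPM (55.0 to 59.5) in the CKO library and 22.1 CPM (20.5 to 23.9) in the Control library, 2.59-fold higher (2.37 to 2.82). Per3, which is not essential for rhythm in mice (chromosome 4 at 150997018 to 151044707, minus strand), had 35.0 CPM (33.2 to 36.8) on 1489 reads in the CKO library and 19.6 CPM (18.1 to 21.3) on 591 reads in the Control library, 1.78-fold higher (1.62 to 1.96). Per2 (chromosome 1 at 91415977 to 91459351, minus strand) differed least of the 3, with 56.9 CPM (54.6 to 59.2) on 2421 reads in the CKO library and 44.1 CPM (41.7 to 46.5) on 1327 reads in the Control library, 1.29-fold higher (1.21 to 1.38). The Per genes were thus unequal. The Per1 to Per2 ratio by TPM was 1.22 in the CKO and 0.612 in the Control library, and the counting interval of its change in reads was 1.80-fold to 2.24-fold higher.

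The annotation of 2 member loci holds a second expressed gene on the opposite strand. Gm35591, an lncRNA model on the plus strand, lies within Per2 at chromosome 1, 91443003 to 91457770. It had 8.13 CPM on 346 reads in the CKO library and 24.9 CPM on 750 reads in the Control library, 3.07-fold lower (2.7 to 3.49), a direction opposite to that of Per2 and like that of Arntl. The library kit keeps strand, per the labels' protocols, but whether the counting used strand is not given in the sources used here, so the split of reads between Per2 and Gm35591 is uncertain. Nr1d1 and Thra, the thyroid hormone receptor alpha gene, share 263 exonic bases of the GENCODE annotation on opposite strands, and Thra had 70.0 CPM in the CKO and 69.1 CPM in the Control library, so the Nr1d1 values carry the same doubt. The lncRNA model D930015M05Rik, which overlaps Cry2, had 0 reads in the CKO and 13 in the Control library.

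The Cry genes encode the cryptochromes, the repressors that bind CLOCK and BMAL1 directly. Cry2 (chromosome 2 at 92403646 to 92434085, minus strand) had 26.5 CPM (24.9 to 28.1) on 1127 reads in the CKO library and 16.8 CPM (15.4 to 18.4) on 507 reads in the Control library, 1.57-fold higher (1.41 to 1.75). Cry1 (chromosome 10 at 85131700 to 85185054, minus strand) had the fewest reads of the loop, with 127 in the CKO and 50 in the Control library. Its level was 2.98 CPM (2.49 to 3.55) in the CKO and 1.66 CPM (1.23 to 2.19) in the Control library, 1.80-fold higher with a wide interval (1.29 to 2.54). The Cry2 to Cry1 ratio was 7.09 in the CKO and 8.13 in the Control library by TPM. A change of that ratio was not detectable at this depth, since its change in reads, 0.875-fold, had an interval of 0.608 to 1.25.

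Nr1d1 and Nr1d2, the heme-binding repressors REV-ERB alpha and beta, were the most abundant members per length and did not differ alike. Nr1d2 (chromosome 14 at 18204056 to 18239106, minus strand) had 155 CPM (152 to 159) on 6610 reads in the CKO library and 112 CPM (109 to 116) on 3381 reads in the Control library, 1.38-fold higher (1.33 to 1.44). Nr1d1 (chromosome 11 at 98767932 to 98775377, minus strand) had 102 CPM (99.1 to 105) on 4348 reads in the CKO library and 116 CPM (112 to 120) on 3488 reads in the Control library. Its log2 ratio was -0.18, but it was 0.14 with total counts and 0.24 with TPM values, so no direction is given for Nr1d1. Within a library, the Nr1d2 to Nr1d1 ratio was 0.906 in the CKO and 0.578 in the Control library by TPM, 1.57-fold higher in reads (1.48 to 1.67).

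Since TMM and total counts each multiply a whole library, ratios between members in reads compare the loop of the 2 libraries without that scaling. TPM values were not a single multiple of the reads for all members, so a TPM ratio need not change exactly as the reads do. The hour of collection is not given, so hour and genotype cannot be told apart in these values. The Arntl to Per1 ratio by TPM was 0.175 in the CKO library and 1.55 in the Control library, so that the order of this activator and this repressor differed between the libraries. In reads the ratio was 8.62-fold lower in the CKO library (7.26 to 10.2). The Arntl to Per2 ratio was 0.214 in the CKO against 0.947 in the Control library, 4.30-fold lower in reads (3.65 to 5.07). Arntl to Nr1d2 was 0.0622 in the CKO against 0.295 in the Control library, 4.61-fold lower in reads (3.95 to 5.38), and Arntl to Nr1d1 was 0.0563 in the CKO against 0.171 in the Control library, 2.94-fold lower in reads (2.52 to 3.43). Summed over their roles, the 5 Per and Cry genes had 79.3 TPM in the CKO and 34.0 TPM in the Control library, and the 3 activator genes had 22.3 TPM in the CKO and 34.3 TPM in the Control library. The Per and Cry sum was thus 3.55 times the activator sum in the CKO library and 0.991 times it in the Control library.

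**Figure D2:**
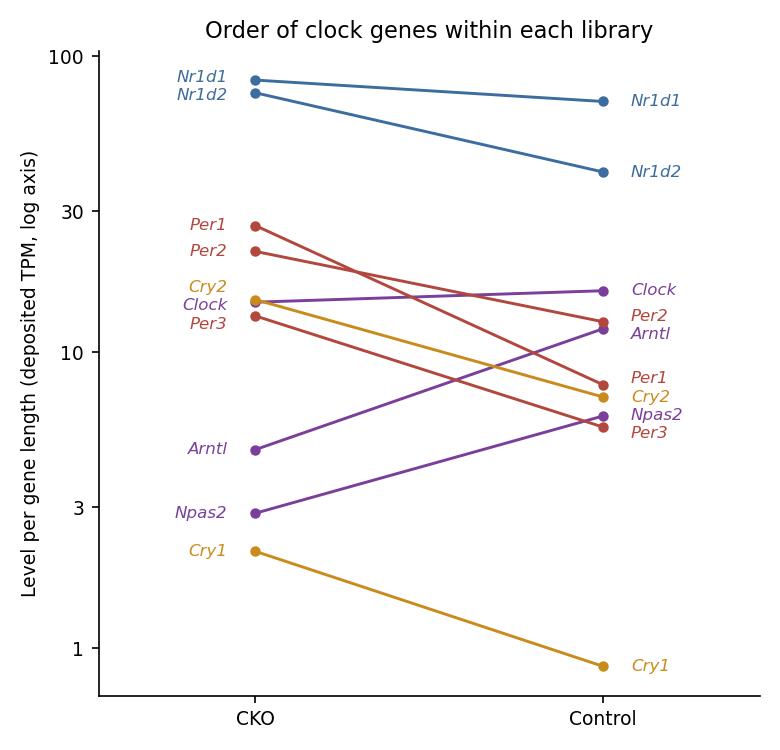
Deposited TPM, a level per gene length, of each clock gene on a log axis in the CKO library (left) and the Control library (right), with a line joining the values of each gene. The line of Arntl crosses those of Per1, Per3 and Cry2, the line of Npas2 crosses that of Per3, and Nr1d1 and Nr1d2 stay on top in both libraries.

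By TPM, Nr1d1 led in both libraries with 83.2 in the CKO and 70.4 in the Control library, followed by Nr1d2 with 75.4 in the CKO and 40.7 in the Control library. Below them the CKO order was Per1 with 26.8 TPM, Per2 with 21.9, Cry2 with 15.1, Clock with 14.8, Per3 with 13.3, Arntl with 4.69, Npas2 with 2.86 and Cry1 with 2.13. Counting intervals of neighbours overlapped there for Cry2 and Clock and for Npas2 and Cry1. In the Control library the order below Nr1d2 was Clock with 16.2 TPM, Per2 with 12.7, Arntl with 12.0, Per1 with 7.77, Cry2 with 7.06, Npas2 with 6.10, Per3 with 5.59 and Cry1 with 0.868. Intervals of neighbours overlapped for Per2 and Arntl and along the run from Per1 through Cry2 and Npas2 to Per3. Arntl thus stood in place 8 of 10 in the CKO and in place 5 in the Control library, and Per1 in place 3 in the CKO and in place 6 in the Control library.

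The scaling of the libraries moved all members together. With total counts the median log2 ratio of all expressed genes was 0.32 and with TPM values 0.40, in place of 0.01. The split of members at least 2-fold higher against lower was 1 and 2 with TMM, 2 and 2 with total counts and 3 and 1 with TPM values, where Cry2 at 1.04 and Per3 at 1.18 joined Per1 at 1.72, and where Npas2 stood at -0.97. Relative to the median of all expressed genes under the same scaling, Arntl was at -1.67 with TMM, with total counts and with TPM. Per1 was at 1.34 with TMM, 1.35 with total counts and 1.32 with TPM, and Nr1d1 was at -0.19, -0.18 and -0.16 under the same scalings.

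**Figure D3:**
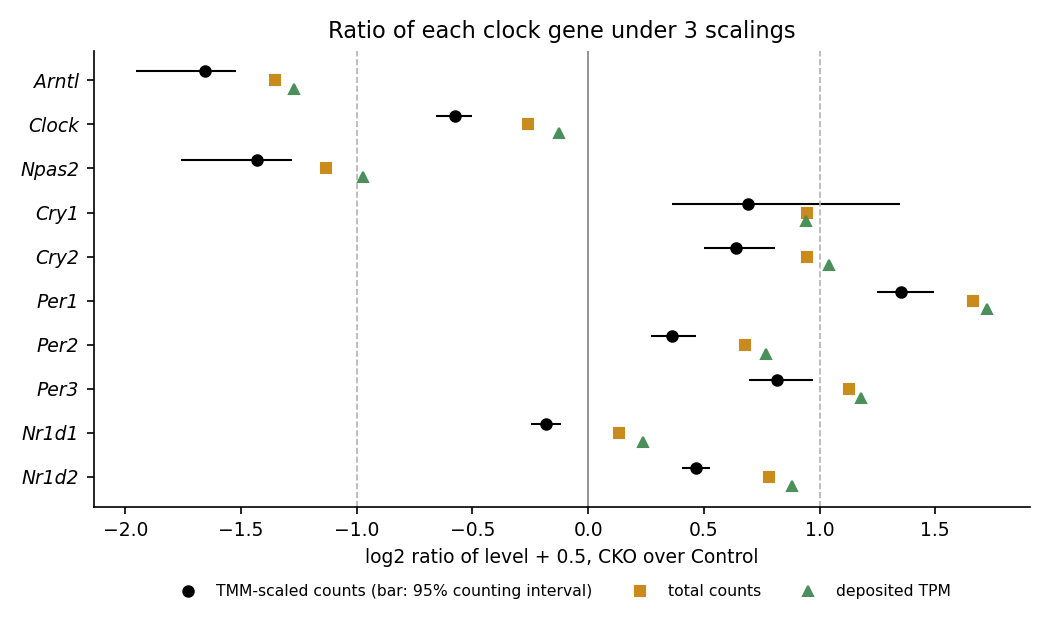
Log2 ratio of level + 0.5, CKO over Control, of each clock gene with TMM-scaled counts, total counts and deposited TPM, with dashed lines at 2-fold and bars for the 95% counting interval of the TMM ratio without the added 0.5. The 3 scalings shift all genes the same way, and Nr1d1 is the gene whose sign turns, at -0.18, 0.14 and 0.24.

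Transcription factors next to the core loop were higher in part. Of 11 listed factors, 10 were expressed. Over all expressed genes, 10.3% were at least 2-fold higher and 1.66% at least 2-fold lower. On the log2(CPM + 0.5) scale, 4 of the 10 expressed factors were at least 2-fold higher in the CKO library and none (0) at least 2-fold lower (1, Nfil3, with 0.1 added in place of 0.5), with a median log2 ratio of 0.28 beside 0.01 for all expressed genes. Ciart, which encodes the CLOCK and BMAL1 repressor CHRONO, had 9.30 CPM on 396 reads in the CKO library and 1.20 CPM on 36 reads in the Control library, 7.78-fold higher (5.52 to 11.3). Dbp, a D-box activator driven by E-boxes, had 86.0 CPM in the CKO and 21.5 CPM in the Control library, 3.99-fold higher (3.67 to 4.35). Bhlhe40 and Bhlhe41, the DEC repressors that compete for E-boxes, were 3.07-fold (2.85 to 3.31) and 3.15-fold (2.53 to 3.96) higher.

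The other expressed factors near the loop lay within 2-fold on the scale of CPM + 0.5. Tef, a D-box activator and the most abundant of the list, had 268 CPM in the CKO and 260.3 CPM in the Control library, and Hlf, the third of that family, had a log2 ratio of -0.32. Nfil3, the D-box repressor, had 3.45 CPM on 147 reads in the CKO and 7.11 CPM on 214 reads in the Control library, 2.06-fold lower (1.66 to 2.56), with a log2 ratio of -0.94 on the scale of CPM + 0.5. Rora, an activator at the elements where REV-ERB represses, had a log2 ratio of 0.11, and Arntl2, the Arntl paralog, had -0.23 on 263 reads in the CKO and 221 in the Control library. Rorb was under 1 CPM in both libraries.

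Enzymes and cofactors that act on clock proteins lay within 2-fold with TMM. Over all expressed genes 10.3% were at least 2-fold higher and 1.66% lower, so in lists this short nothing is read from a count of none. Of 13 kinases and ubiquitin enzymes of PER and CRY, none (0) was at least 2-fold higher or lower, and their median log2 ratio was -0.12. Csnk1e, the casein kinase 1 epsilon gene, stood highest at 26.6 CPM in the CKO and 14.5 CPM in the Control library (1.83-fold, 1.63 to 2.04). Prkaa2, an AMP-activated kinase subunit and the most abundant, stood lowest at 246 CPM in the CKO and 343 CPM in the Control library, followed by the ubiquitin ligase subunit gene Fbxw11 at -0.43 and the deubiquitinase gene Usp7 at -0.33. Of 12 cofactors, none (0) passed 2-fold either way with TMM, with a median of -0.03. Timeless was at 0.82, Nampt, the NAD salvage enzyme gene, at 0.31, Kmt2a at 0.23, Sfpq, the most abundant, at -0.14 and Ncor1, the corepressor of REV-ERB, at -0.47. With total counts 1 gene of each list passed 2-fold upward, and the medians were 0.20 for the enzymes and 0.28 for the cofactors, where that of all expressed genes was 0.32.

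**Figure D4:**
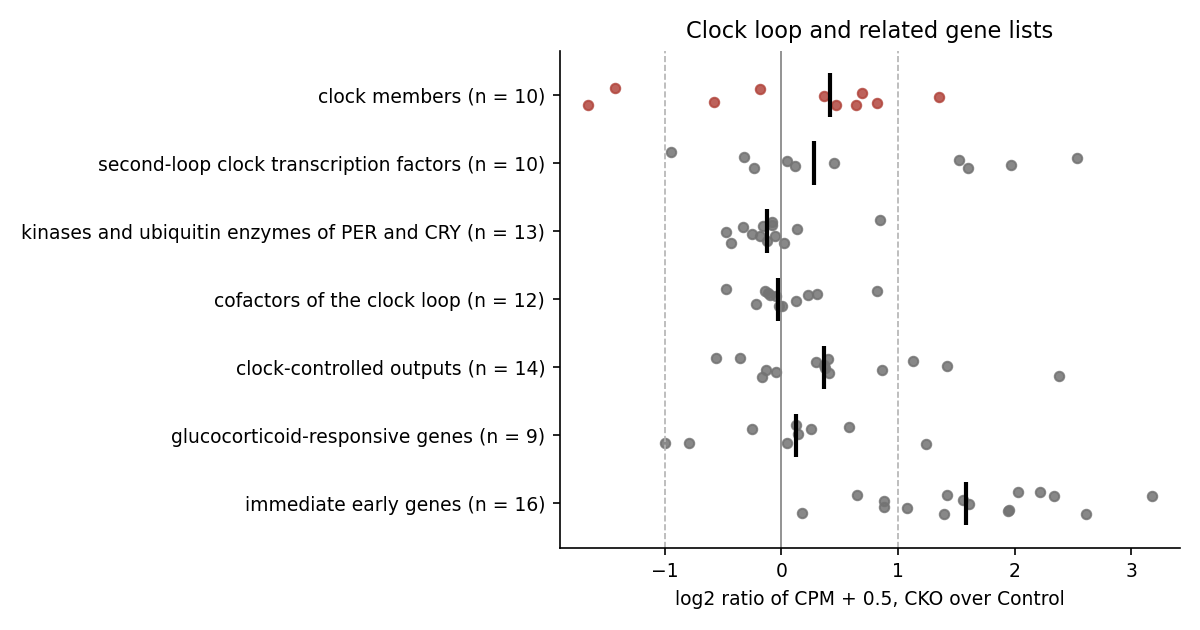
Log2 ratio of CPM + 0.5, CKO over Control, of the expressed genes of the clock loop and of 6 related lists, 1 point a gene (spread vertically for sight only), with a black bar for the median and dashed lines at 2-fold. Clock members range from -1.66 to 1.35, the enzymes and cofactors stay within 2-fold, and the immediate early genes have a median of 1.58.

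Genes that the clock is known to control in mouse tissues differed in both directions, with 9 above and 5 below a log2 ratio of 0. Together they summed to 1694 CPM in the CKO and 1732 CPM in the Control library. Of 14 listed outputs, 3 were at least 2-fold higher, where 10.3% of all expressed genes were. None (0) was at least 2-fold lower, where 1.66% of all expressed genes were, and the median log2 ratio was 0.37. Wee1, a cell cycle kinase gene with E-boxes, had 17.4 CPM in the CKO and 7.67 CPM in the Control library (2.26-fold, 1.95 to 2.63). Edn1, the endothelin gene, had 6.95 CPM on 296 reads in the CKO and 0.930 CPM on 28 reads in the Control library (7.48-fold, 5.07 to 11.4). It reached the minimum of 1 CPM in the CKO library only. Fxyd5, a sodium pump regulator, was 2.78-fold higher (2.42 to 3.21). Scnn1b, an epithelial sodium channel subunit gene, was at 0.86, and Por, the P450 reductase gene and the most abundant by the mean of both libraries, was at -0.56 with 309 CPM in the CKO and 455 CPM in the Control library.

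Signals that act on Per genes from outside the loop were read from further lists. Of 16 expressed immediate early genes, 12 were at least 2-fold higher in the CKO library and none (0) at least 2-fold lower, beside 10.3% and 1.66% of all expressed genes. Their median was 1.58, and the summed level of the list was 535 CPM in the CKO against 196 CPM in the Control library. Egr2 was 24.1-fold higher (12.1 to 56.5) on 273 reads in the CKO and 8 in the Control library, Atf3 9.31-fold, Egr1 5.21-fold and Junb 4.81-fold, and Klf6, the most abundant by the mean of both libraries, 3.08-fold. Egr2, Atf3 and Fosb, all counted as higher, reached the minimum of 1 CPM in the CKO library only. They had 0.266, 0.797 and 0.0996 CPM in the Control library. Egr3 had 20 reads in the CKO and 0 in the Control library. Per1, which cAMP response factors induce in many cells, was higher beside them, and the part of these genes' common inducers in the Per1 value was not tested. Of 9 glucocorticoid-responsive genes, 1 was at least 2-fold higher and none (0) at least 2-fold lower, with a median of 0.12. Mt2 was 2.40-fold higher and Mt1 was at 0.58, whereas Fkbp5, a sensitive glucocorticoid target, was at -0.99 with 64.7 CPM in the CKO and 129 CPM in the Control library, and Errfi1, the most abundant, was at -0.79. With DESeq2 size factors 1 gene of this list was at least 2-fold lower, and with TPM values 2 were at least 2-fold higher.

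Cell type markers also differed between the libraries. Over all expressed genes, 10.3% were at least 2-fold higher and 1.66% at least 2-fold lower. Of 12 proximal tubule markers, 5 passed 2-fold downward in the CKO library and none (0) at least 2-fold higher, and they summed to 15729.8 CPM in the CKO and 28919 CPM in the Control library, with Slc22a7 3.72-fold, Miox 2.27-fold, Acsm2 2.24-fold and Slc22a6 2.24-fold lower. With total counts, TPM or FPKM values 1 of the 12 passed 2-fold downward. Among 8 genes of tubular injury, 7 passed 2-fold upward, with a sum of 4869 CPM in the CKO against 489 CPM in the Control library, led by Lcn2, Krt19 and Cd44 in the log2 ratio of CPM + 0.5, and Spp1 was the most abundant. Of these, Lcn2, Krt19 and Sox9 reached 1 CPM in the CKO library only, with 0.399, 0.399 and 0.332 CPM in the Control library. Of 9 macrophage markers, 8 were at least 2-fold higher, with a sum of 329 CPM in the CKO against 73.6 CPM in the Control library, led by Lyz2 at 18.1-fold, Cd14, Itgam and C1qc, with Csf1r the most abundant by the mean of both libraries. Of 8 lymphocyte markers, 4 were expressed, Cd3g, Cd4, Cd8a and Lck, and each of them reached 1 CPM in the CKO library only. Of these, 3 were at least 2-fold higher (none (0) with a pseudocount of 2). Nothing is read from this count, since the minimum let in only markers that were high in the CKO library. The 8 markers summed to 7.21 CPM in the CKO and 2.39 CPM in the Control library, and Ms4a1 was at 0 in the CKO library. Distal markers had 1 of 10 at least 2-fold higher, Aqp2 (2 of 10 with TPM values), and summed to 3697 CPM in the CKO against 2678 CPM in the Control library. Umod, the most abundant, made up 2170 CPM of that sum in the CKO and 1386 CPM in the Control library. Of the 10 distal markers, 8 had a log2 ratio above 0 and 2 below 0, with Calb1 lowest at 77.9 CPM in the CKO and 124 CPM in the Control library. Endothelial markers summed to 348 CPM in the CKO and 374 CPM in the Control library with none (0) of 6 past 2-fold, and podocyte markers to 398 CPM in the CKO and 396 CPM in the Control library with none (0) of 5. The part of these shifts in the clock values was not tested.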

How the data were processed

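RNA of whole kidneys was sequenced as 1 CKO and 1 Control library. Per the submitters' processing notes, the tools were FastQC, STAR 2.7.3a, Cufflinks 2.2.1, HTSeq, edgeR and DESeq2 and the build was mm10, with no role or order given. The deposited read counts per NCBI gene are whole and not normalized, per the file headers and values. The deposited FPKM values are scaled by length and depth by the authors, per the file headers, and the deposited TPM values to a fixed total. The authors' deposited normalized signal, for 19550 genes, has, in each library, 1 fixed divisor for all read counts.

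Counts were scaled by TMM (edgeR 4.0.16, R 4.3.3), with factors of 1.12 for the CKO and 0.896 for the Control library. Log2 ratios used CPM + 0.5, which understates those of low genes, and plain ratios have 95% intervals from the exact (Clopper-Pearson) interval of the share of a gene's reads that the CKO library held. Level intervals are exact Poisson. Ratios of 2 members have conditional exact intervals. Intervals cover counting error only, and reads without molecular identifiers are not independent molecules. A test across animals was not possible with 1 library a group. Steps were checked on simulated counts.

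Members and lists were chosen with earlier results of these data known. Named were all members, Inmt, genes overlapping a member and, in each of 13 other lists, the 4 expressed genes with the largest log2 ratio in either direction and the most abundant gene by the mean of both libraries. Hlf, Nfil3, Rora, Rorb, Arntl2, Egr3 and Ms4a1 were named after their values were seen, and some listed genes are not reported here. Coordinates are RefSeq's for GRCm38, the assembly of mm10, with strand from GENCODE M21. Python 3.11.15, scipy 1.17.1 and DESeq2 1.42.0 gave the rest. The alternatives were DESeq2 size factors, total counts with and without mitochondrial and the 50 most abundant genes, the deposited TPM, FPKM and normalized values, pseudocounts of 0.1 and 2, a minimum of 10 CPM or none, a thinned CKO library, a 1.5-fold limit and the counting interval as a further limit.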

Additional observations from a re-analysis of the deposited data

How the results depend on the processing

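Arntl was at least 2-fold lower and Per1 at least 2-fold higher under all 12 scalings, pseudocounts and minimums run, with log2 ratios of -1.72 to -1.27 and of 1.30 to 1.72. These settings are not all separate checks. A change of the minimum cannot move the ratio of a gene that stays in. The deposited normalized values gave nearly the TMM scaling, with Arntl at -1.66 under each. Npas2 (-1.50 to -0.94) and Clock (-0.59 to -0.12) stayed below 0, and Cry1 (0.44 to 0.95, 10 settings), Cry2 (0.60 to 1.04), Per2 (0.35 to 0.77), Per3 (0.77 to 1.18) and Nr1d2 (0.45 to 0.88) above 0. Nr1d1 ran from -0.20 to 0.24. The scalings moved the median of all genes, by their construction. Members at least 2-fold higher numbered 2 with total counts, 2 without mitochondrial and top genes, 3 with TPM and 2 with FPKM, and 4 at 1.5-fold. Members lower numbered 1 with TPM and 1 with FPKM. The members' median was 0.73 with total counts, 0.61 without mitochondrial and top genes, 0.82 with TPM and 0.64 with FPKM. Of 127 expressed genes in the other lists, 39 were higher and 5 lower, beside 10.3% and 1.66% of all expressed genes, with a median of 0.23. Among those higher, Edn1, Egr2, Atf3, Fosb, Lcn2, Krt19, Sox9, Cd3g, Cd8a and Lck reached 1 CPM in the CKO library only. Nothing is read from the pooled count for that reason. With a minimum of 10 CPM, which a gene could also pass in 1 library only, 29 of 110 were higher and 5 lower. Lower genes numbered 1 with total counts, 1 without mitochondrial and top genes, 1 with TPM, 1 with FPKM and 10 at 1.5-fold, and medians were 0.55, 0.44, 0.65, 0.51 and, with a minimum of 10 CPM, 0.16. Over all genes, those higher and lower numbered 2391 and 102 with total counts, 2613 and 139 with TPM, 825 and 167 with a pseudocount of 2, and 2920 and 1037 at 1.5-fold. Those lower numbered 158 without mitochondrial and top genes and 102 with FPKM, and those higher 573 with a minimum of 10 CPM. Their medians were 0.32 with total counts, 0.21 without mitochondrial and top genes, 0.40 with TPM and 0.26 with FPKM. No paired analysis was possible because each group has 1 library. Depth limits Cry1 most, on 127 and 50 reads in the CKO and Control libraries.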

Other observations

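Clock motifs were also read over all genes with a RefSeq promoter window. Of 1307 expressed genes with CACGTG in a window, in the CKO library 8.49% were higher by 2-fold or more and 0.918% lower by 2-fold or more, with a median log2 ratio of -0.05, beside 10.4% and 1.66% and a median of 0.01 for the 10222 expressed genes without it. For TAGGTCA or TGGGTCA, 738 expressed genes had a median of 0.01, with 10.6% higher and 2.98% lower, beside a median of 0.00 with 10.1% higher and 1.48% lower for genes without it. For CACGTT, 8.12% of 727 expressed genes were higher and 1.10% lower, beside 10.3% and 1.61% without it. For TGACGTCA, 9.47% of 380 expressed genes were higher and 0.263% lower, beside 10.2% and 1.62% without it.

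The D-box TTATGTAA was in a window of 83 expressed genes, with a median of -0.10. Of these, 11 were at least 2-fold higher (13.3%) and 6 at least 2-fold lower (7.23%), beside 10.2% and 1.54% of genes without it. These counts were taken with TMM only, and nothing is read from shares that rest on so few genes. The lower genes had log2 ratios of -2.30 to -1.04, and with total counts the median of all expressed genes was 0.32 in place of 0.01. The 11 higher genes, named after their values were seen, were Jdp2, Lcp1, Ankrd45, Inhba, Il1rl2, Ptgds, Medag, Ifi202b, Clec12a, Ms4a7 and Prlr. Of these, Inhba, Medag, Clec12a and Ms4a7 reached 1 CPM in the CKO library only. Prlr had 39.7 CPM in the CKO and 5.94 CPM in the Control library. The 6 lower genes, also named after their values were seen, were Acsm3, Xlr3b, Gm15348, Ces1e, Miox and 4931406C07Rik. Of these, Xlr3b reached 1 CPM in the Control library only. Acsm3, a medium-chain acyl-CoA synthetase gene, had 156 CPM in the CKO and 770.0 CPM in the Control library, and Miox, the inositol oxygenase gene and a proximal tubule marker, had 709 CPM in the CKO and 1606 CPM in the Control library.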
